A study of Mus musculus with 6 samples.

Results

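The genes described here are Cgref1 and the genes that lie around it on mouse chromosome 5. They are the genes of the deposited table whose interval overlaps Cgref1 or the 1 Mb on either side of it, chr5:29933143-31945480 in GRCm38, without Khk, Hadha and Hadhb. This gave 40 of the 15953 genes in the table, Cgref1 among them, out of 980 on chromosome 5. The remaining genes were taken by position from that table, with no further threshold on an expression value. Why these 3 were set aside is not stated. RefSeq places 53 protein-coding genes in this window and the deposited table holds 43 genes there, so some genes are missing from it. Whether low detection kept them out was not tested. RNA sequencing was carried out on liver from 3 mice labelled Cgref1 KO and 3 mice labelled wild type, all C57BL/6. The replicates are labelled biological and their cell type is labelled hepatocytes, whereas the design text speaks of liver tissue. How the Cgref1 allele was made, what it removes of the gene, and the animals' age and sex were not given in the sources used here. How the replicates were obtained is not stated further, so the p-values measure the spread between these samples. The question was how hepatic transcript levels in the knockout-labelled mice compare with wild type, here along the stretch of chromosome that carries the targeted gene.

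Cgref1 encodes a secreted protein with EF-hand calcium-binding motifs that is known from cell growth control and cell adhesion. Genes next to a targeted gene travel with the edited allele, and deletion of a stretch of DNA can also remove elements that act on neighbours, so the levels of flanking genes are commonly read alongside those of the targeted gene. The neighbours of Cgref1 are functionally mixed. Several of them serve the endoplasmic reticulum and protein export, others serve liver carbohydrate and nucleotide metabolism, mitochondria, transcription or the microtubule cytoskeleton.

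Library totals were 17649817 to 18366443 estimated counts in the knockout-labelled group and 17627734 to 18185837 in wild type. Of 15 hepatocyte markers, 0 were at 0 in all libraries, and together they made up 112695.908 to 138221.209 CPM (counts scaled to a common library total) in knockout-labelled and 117214.411 to 140345.382 CPM in wild type libraries. Intestinal epithelium markers differed between wild type libraries. The 29 markers in the table summed to 1339, 1485 and 1219 counts in knockout-labelled replicates 1, 2 and 3, against 2502, 1483 and 2788 counts in wild type replicates 1, 2 and 3. The 26 of them that lacked 10 counts in at least 1 library summed to 31, 26 and 39 counts in the knockout-labelled group and to 253, 44 and 569 counts in wild type. Wild type replicates 1 and 3 therefore held most of this signal, and the fits were repeated without them.

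The gene models of the table differ from RefSeq for some neighbours, which bears on what a count can hold. Of 37 genes with a strand in the RefSeq promoter table, 5 carried the opposite strand in the deposited table: Preb, Mpv17, Gtf3c2, Ppm1g and Rbks. For 31 of the 40 genes the model included noncoding transcripts besides the messenger RNAs. Cgref1 was not among these, and its model held 2 transcripts, both RefSeq messenger RNAs. The model of Tmem214 began at the start of its neighbour Mapre3, so the 2 models overlapped by 51701 bases. The strand setting of the counting was not stated, so reads in overlapping stretches cannot be assigned to one gene with certainty.

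The DNA just before the start of Cgref1 and of Preb is shown because these are the targeted gene and its nearest neighbour on the side of higher coordinates, and because Preb is one of the 2 neighbours with the smallest p-values. Both genes are on the minus strand. The stretches were taken from the RefSeq promoter windows of GRCm38.p6 and shortened to bases outside exons annotated by GENCODE. They are 139 bases at chr5:30945592-30945730 for Cgref1 and 216 bases at chr5:30960362-30960577 for Preb, read 5′ to 3′ on the strand of the gene. Capitals mark the cyclic AMP response element half-site TGACG, searched on both strands and found here as its reverse complement.
Cgref1: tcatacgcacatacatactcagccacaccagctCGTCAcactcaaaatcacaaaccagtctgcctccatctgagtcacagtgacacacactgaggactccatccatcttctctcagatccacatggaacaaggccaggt
Preb: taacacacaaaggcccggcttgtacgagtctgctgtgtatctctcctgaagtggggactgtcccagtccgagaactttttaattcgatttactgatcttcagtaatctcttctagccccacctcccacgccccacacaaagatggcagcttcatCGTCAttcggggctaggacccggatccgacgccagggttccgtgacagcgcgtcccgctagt
The printed stretch of Cgref1 held 2 CpG dinucleotides at 49.6% G and C, and that of Preb held 14 at 54.6%. Both stretches leave out bases nearest the start because of annotated exons. The full window of 250 bases before the RefSeq start held 14 CpG at 62.4% for Cgref1 and 19 at 56.0% for Preb. For Cgref1 the part of this window up to 30945591 is exon 1 of its coding transcript in GENCODE. The value of the full window therefore includes transcribed bases by that annotation. Over the full 250 bases before the start, TGACG occurred in 9 of the 37 neighbours with a promoter entry, Cgref1 and Preb included, and in 17.8% of 27025 mouse promoter windows. The GC box GGGCGG occurred in 19 of the 37, against 33.0% of all windows, and CCAAT in 14, against 34.5%. None of the 3 motifs contains another, and a match describes the sequence only. The windows before the 30 genes with a mean of at least 1 TPM (transcript abundance scaled for length and library) held a median of 16.5 CpG, those before the 7 genes under 1 TPM a median of 13.0, and all windows a median of 6.0.

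In liver most of the 40 genes taken from the deposited table were transcribed, while Cgref1 itself was not far above the limit of detection. Levels between genes are compared in TPM. Averaged over the 6 libraries, 2 genes stood above 100 TPM, 14 stood between 10 and 100 TPM, 14 between 1 and 10 TPM and 10 below 1 TPM. The share below 1 TPM was 25%, against 35% of all genes in the table and 31.8% of the other genes of chromosome 5. The highest level was that of Ost4, a small subunit of the oligosaccharyltransferase that attaches N-glycans to proteins entering the endoplasmic reticulum. It had 203.65, 207.73 and 195.49 TPM in knockout-labelled livers and 220.16, 231.41 and 251.35 TPM in wild type livers. Atraid, named for its induction by all-trans retinoic acid, followed with 117.3 ± 6.56 TPM in knockout-labelled and 123.2 ± 8.16 TPM in wild type livers (SD, n = 3 each). Mrpl33, a protein of the large mitochondrial ribosomal subunit, averaged 69.9 ± 7.78 TPM in knockout-labelled and 74.9 ± 9.40 TPM in wild type livers. Gckr, the regulatory protein that holds glucokinase inactive in the hepatocyte nucleus, averaged 55.1 ± 5.50 TPM in knockout-labelled and 64.0 ± 1.67 TPM in wild type livers. The order Ost4, Atraid, Mrpl33, Gckr was separated by more than these spreads between Ost4 and Atraid and between Atraid and Mrpl33, whereas single libraries of Mrpl33 and Gckr overlapped in level. Preb, Nrbp1, Babam2 and Tmem214 came next within 31.5 to 34.5 TPM and were not separated by their spread. In TPM 22.5% of all genes tested had a higher value in the knockout-labelled group, against 49.5% on TMM-scaled counts, so the group comparison rests on the TMM-scaled counts and the TPM result is given beside it.

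**Figure D1:**
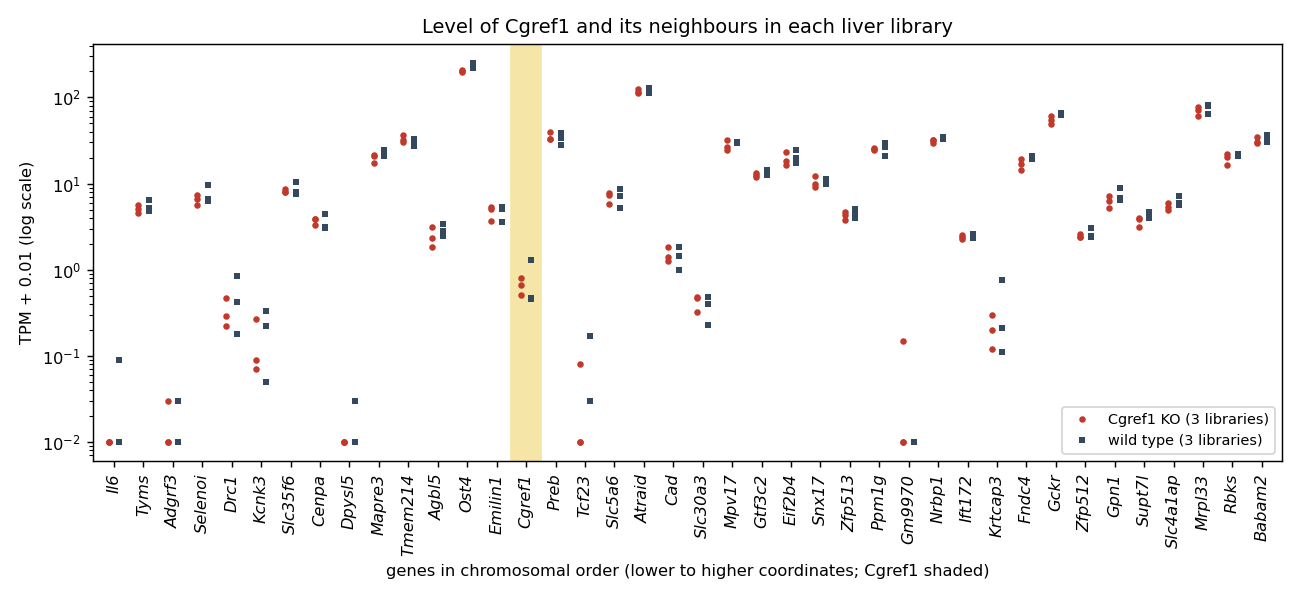
TPM of the 40 genes in chromosomal order, on a log axis after adding 0.01, with each of the 3 Cgref1 KO libraries (circles) and 3 wild type libraries (squares) as a point. Ost4 and Atraid stand above 100 TPM in every library, 30 genes average at least 1 TPM, and Cgref1 (shaded) lies at 0.45 to 1.27 TPM.

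Cgref1 lies on the minus strand at chr5:30933143-30945480 in the deposited table and in RefSeq. Its coding transcript in GENCODE has 6 exons that sum to 1442 bases. That transcript starts at 30945591, outside the RefSeq interval. The 6 livers gave 62 counts in all. Knockout-labelled replicates 1, 2 and 3 had 7, 12 and 10 counts, against 7, 7 and 19 counts in wild type replicates 1, 2 and 3. On the length-corrected scale these were 0.50, 0.80 and 0.65 TPM in the knockout-labelled group and 0.46, 0.45 and 1.27 TPM in wild type. The groups overlapped, and 1 wild type library held more than the other two together. An exact two-sided permutation test on CPM gave p = 1.0, where 3 against 3 libraries cannot go below 0.1. With the gene kept in the edgeR fit in spite of its low counts, the log2 fold change was -0.11 with a 95% confidence interval of -1.23 to 1.01 (quasi-likelihood test, Benjamini-Hochberg adjusted p = 0.994). That interval spans folds of 0.425 to 2.01, so a transcript at under 0.425 of its wild type level would lie outside it, and a smaller difference could not be detected at this depth. Wild type replicate 3, with 19 Cgref1 counts, was also the library with the most counts of intestinal markers, 569 over the 26 markers named above. Wild type replicate 1, with 253 counts of these markers, had 7 Cgref1 counts. Knockout-labelled replicate 2, with 26 counts of these markers, had 12. The part of intestinal RNA in the Cgref1 counts was not tested. Without wild type replicate 3 the log2 fold change was 0.53 by edgeR (adjusted p = 0.85), a change of sign. A count over the whole gene cannot show whether the reads came from exons that the allele leaves in place. Genotypes are therefore given as labelled.

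Across the neighbours, the knockout-labelled livers did not differ from wild type in any gene by edgeR's adjusted test. After the filter on low counts 33 of the 40 genes were tested, 0 were called higher and 0 lower at an adjusted p under 0.05, and the background was 0.00831% of all 12033 genes tested, which is 1 gene elsewhere in the genome. DESeq2 and limma-voom also called 0 of the 33, with 0.233% and 0.00831% of all genes called. At an unadjusted p under 0.05 by edgeR, 2 of the 33 had higher values, against 2.95% of all genes, and 0 had lower values, against 2.2%. Together this was 6.06%, near the 5.15% of all genes tested and the 5.55% of the other tested genes of chromosome 5. At the same unadjusted threshold DESeq2 and limma-voom each found 1 of the 33, Tmem214, against 4.33% and 5.24% of all genes. The median log2 fold change of the 33 was 0.04, that of all genes tested 0.00 and that of the rest of chromosome 5 0.02 (739 genes). Positive values were found in 21 genes and negative ones in 12, but with library totals as scaling the split was 8 to 25 and on log2(TPM + 1) it was 7 to 26, as the median of all genes moved to -0.08 and -0.11. The median size of the log2 fold change, regardless of sign, was 0.07 in the interval, 0.11 on the rest of chromosome 5 and 0.11 over all genes. Of 33 confidence intervals, 22 lay within log2 fold changes of -0.5 and 0.5, or 66.7%, against 52.2% over all genes, and 30 lay within -1 and 1. The 3 that did not belonged to Drc1, Kcnk3 and Slc30a3, each with 46 to 61 counts over the 6 libraries. Of the 40 genes, 0 had a q-value under 0.05 in the authors' deposited table, against 0.169% of all genes there, and the table gave Tmem214 a log2 fold change of 0.27 and Preb one of 0.25.

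**Figure D2:**
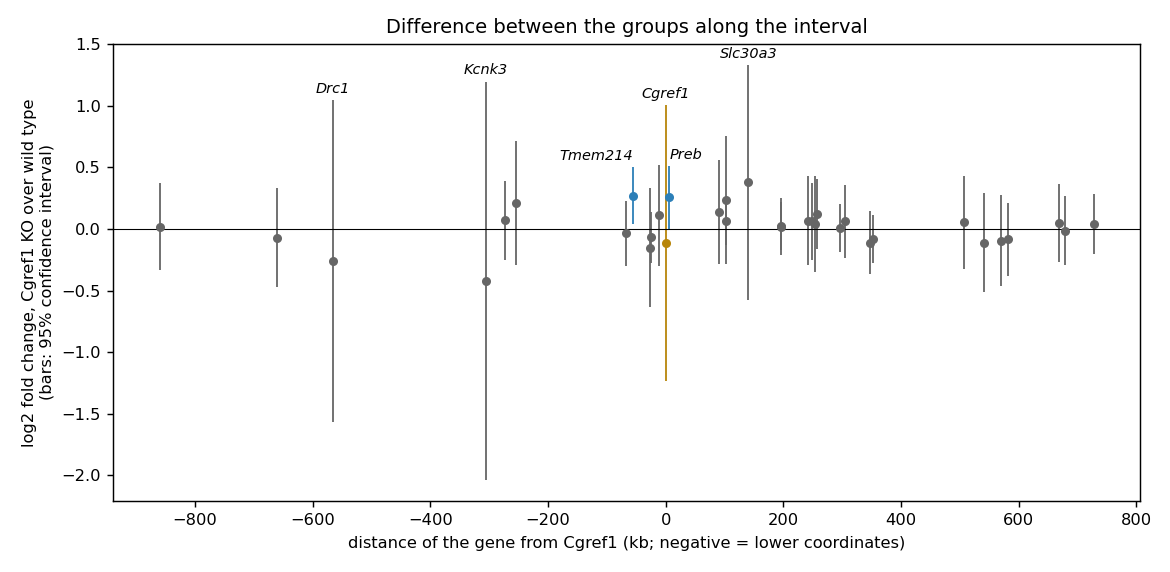
Log2 fold change of Cgref1 KO over wild type, with its 95% confidence interval, against distance from Cgref1 in kb. Tmem214 and Preb (blue) are the genes whose groups did not overlap, Cgref1 (gold) spans -1.23 to 1.01, and all other intervals include 0.

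The 8 genes within 100 kb held both of the smallest p-values. Tmem214, a membrane protein of the endoplasmic reticulum, ends 55.7 kb from Cgref1. It had 61.6, 63.9 and 73.2 CPM in knockout-labelled livers and 51.4, 54.1 and 59.1 CPM in wild type livers. All 3 knockout-labelled values were above all 3 wild type values, by a gap smaller than the SD of either group. The log2 fold change was 0.27 (SE 0.10, 95% confidence interval 0.04 to 0.50), and the adjusted p was 0.918 by edgeR, so the gene did not pass over all genes tested. Preb, the exchange factor for the small GTPase SAR1 that starts the COPII coat of vesicles leaving the endoplasmic reticulum, lies 6.2 kb away on the other side. It had 86.2, 92.1 and 105.9 CPM in knockout-labelled livers and 69.6, 84.3 and 84.1 CPM in wild type livers. The groups again did not overlap, and the gap between them was again smaller than the SD of either group. Its log2 fold change was 0.26 (SE 0.11, 95% confidence interval 0.00 to 0.51), with an adjusted p of 0.962 by edgeR. Of the 33 genes tested, these were the 2 whose groups did not overlap in CPM with the knockout-labelled livers higher, against 6.19% of all genes, and 0 had groups apart with the knockout-labelled livers lower, against 4.63%.

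The difference in these 2 genes depends on how libraries are scaled. In TPM, Tmem214 had 31.87, 30.53 and 36.41 in knockout-labelled and 27.50, 29.90 and 32.96 in wild type livers, and Preb had 33.24, 33.29 and 39.79 in knockout-labelled and 27.80, 38.80 and 33.98 in wild type livers, so that the groups overlapped in both. On log2(TPM + 1) with limma-trend the log2 fold changes were 0.12 for Tmem214 and 0.09 for Preb, while the median of all genes was -0.11. On that scale 0 of the 33 genes had groups apart with the knockout-labelled livers higher and 4 had them lower, namely Fndc4, Gckr, Nrbp1 and Ost4, against 1.44% and 15.3% of all genes. Without wild type replicates 1 and 3 the log2 fold change was 0.28 for Tmem214 and 0.16 for Preb. That fit has 1 wild type library, which is assumed to vary like the knockout-labelled ones, so only its values are given. Preb stood at 0.16 without wild type replicate 1 alone and at 0.17 without knockout-labelled replicate 3. It stood at 0.28 to 0.32 without any other 1 library. With the replicate block in edgeR, Preb had 0.26 (unadjusted p = 0.0183, adjusted p = 0.42). Tmem214 had 0.27 in that fit (unadjusted p = 0.0125, adjusted p = 0.384). The model of Preb in the deposited table carried the plus strand and 8 noncoding transcripts from outside RefSeq, and the model of Tmem214 held 6, so part of either count may belong to those transcripts. Their share was not tested. Kupffer cells are liver macrophages. All 14 of their markers had positive log2 fold changes with a median of 0.33, 9 of them at an unadjusted p under 0.05 by edgeR against 5.15% of all genes, 0 passed over all genes, and 0 were at 0 in all libraries. The 9 became 4 with library totals and 2 on log2(TPM + 1), but 11 with limma-voom or no filter and 12 with the replicate block. The median ranged from 0.17 to 0.35 over 18 alternative settings, and from 0.27 to 0.35 relative to the median of all genes. They summed to 445.67 to 473.656 CPM in knockout-labelled and 361.38 to 421.552 CPM in wild type libraries. Stellate cell and matrix markers mostly went the other way, with 10 of 12 negative and a median of -0.20, and 0 of 12 were at 0 in all libraries. At an unadjusted p under 0.05 by edgeR, 2 were lower, against 2.2% of all genes, and 1 was higher, against 2.95%. The higher one, Acta2, had the largest log2 fold change of the list (1.22, SE 0.37). Of the 12, 0 passed over all genes. The 12 markers summed to 312.468 to 364.197 CPM in knockout-labelled and 366.879 to 495.072 CPM in wild type libraries, so these groups were narrowly apart as well. Without wild type replicate 3 the median was -0.09. The other marker lists, by tested genes, were as follows. Positive were 9 of 15 hepatocyte (median 0.05), 5 of 10 sinusoidal endothelial (-0.04) and 3 of 5 cholangiocyte markers (0.06). So were 1 of 4 lymphocyte (-0.13), 1 of 4 intestinal (-0.375) and 2 of 2 exocrine pancreas markers (0.49), and 0 of 5 erythrocyte genes (-0.18). Over all genes 49.5% were positive. The part of Kupffer or stellate cells in the Tmem214 and Preb values was not tested. In bulk tissue fewer cells of a type cannot be told apart from less RNA per cell.

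The other genes within 100 kb had overlapping groups. Emilin1, a glycoprotein of elastic fibres, lies 11.9 kb from Cgref1 and had 12.5, 9.88 and 13.7 CPM in knockout-labelled livers and 8.61, 12.6 and 12.2 CPM in wild type livers (log2 fold change 0.11, SE 0.18). The confidence interval of Emilin1 was -0.30 to 0.52. Ost4, 25.3 kb away, had 54.6, 61.6 and 55.9 CPM in knockout-labelled livers and 57.3, 59.6 and 63.7 CPM in wild type livers (log2 fold change -0.07, 95% confidence interval -0.28 to 0.14). Agbl5, a carboxypeptidase that trims glutamate chains from tubulin, overlaps Ost4 by 151 bases on the opposite strand and averaged 5.89 ± 1.53 CPM in knockout-labelled and 6.54 ± 0.997 CPM in wild type livers (SD, n = 3 each). Its log2 fold change was -0.15 with SE 0.21. Mapre3, which binds the growing ends of microtubules, averaged 27.0 ± 3.09 CPM in knockout-labelled and 27.6 ± 2.08 CPM in wild type livers, a log2 fold change of -0.04. Slc5a6, the sodium-dependent carrier of biotin and pantothenate, lies 90.6 kb away and averaged 16.5 ± 2.80 CPM in knockout-labelled and 15.03 ± 3.39 CPM in wild type livers, with a log2 fold change of 0.14 (SE 0.19). Tcf23, a basic helix-loop-helix gene 23.1 kb away, had 0, 0 and 4 counts in knockout-labelled and 1, 1 and 3 counts in wild type libraries and was not tested. Of the 7 genes tested in this range the median size of the log2 fold change was 0.14, against 0.07 for the 16 genes at 100 to 500 kb and 0.06 for the 10 genes beyond 500 kb. These ranges hold few genes and their difference was not tested. On the side of lower coordinates 5 of 11 log2 fold changes were positive, and on the side of higher coordinates 16 of 22.

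**Figure D3:**
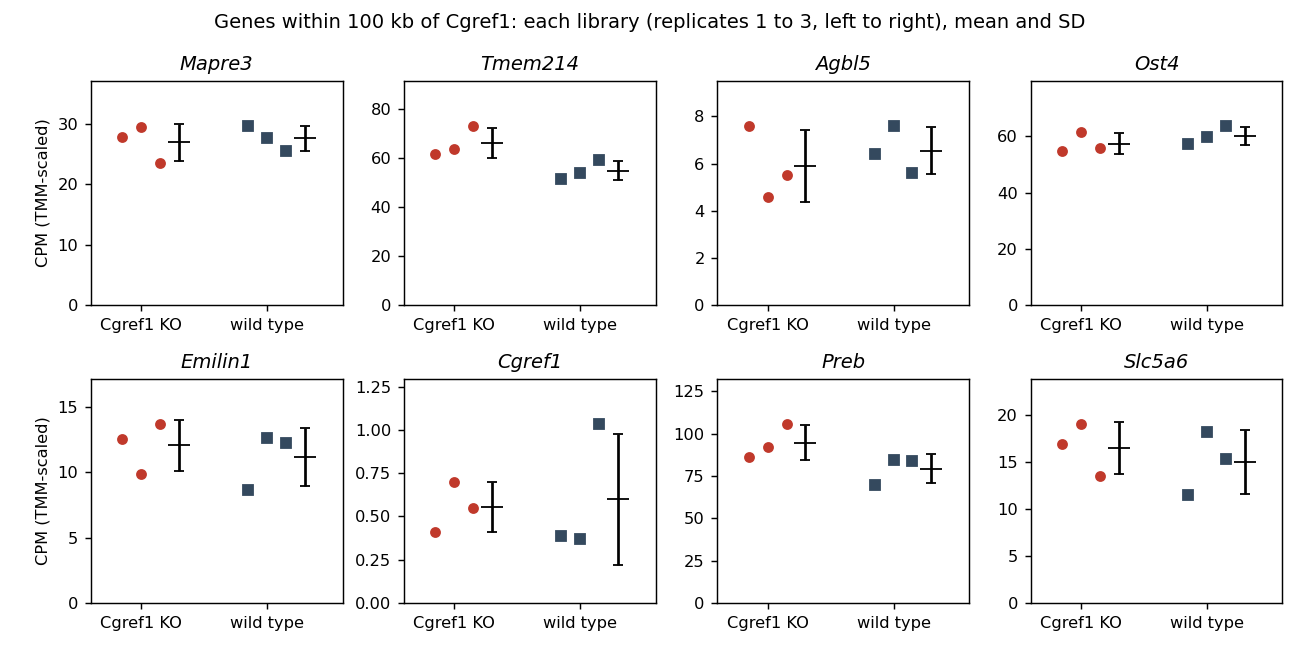
TMM-scaled CPM of Cgref1 and the 7 tested genes within 100 kb of it, with each Cgref1 KO library (circles, left) and wild type library (squares, right) as a point and the mean and SD beside them. The groups are apart in Tmem214 (66.2 ± 6.15 against 54.9 ± 3.91 CPM) and Preb (94.7 ± 10.1 against 79.3 ± 8.41 CPM) and overlap in the other 6 panels.

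Among the genes of liver metabolism, Gckr had the best-measured level, with 10851 counts over the 6 libraries. It had 103.3, 92.0 and 98.1 CPM in knockout-labelled livers and 105.9, 105.0 and 99.3 CPM in wild type livers. The groups overlapped at 1 library each, and the log2 fold change was -0.08 (95% confidence interval -0.28 to 0.12, edgeR adjusted p = 0.988). Fndc4, a secreted protein with a fibronectin type III domain, had 25.2, 23.2 and 29.6 CPM in knockout-labelled livers and 27.7, 28.7 and 27.8 CPM in wild type livers (log2 fold change -0.11, 95% confidence interval -0.37 to 0.15). The wild type values were close together and lay inside the knockout-labelled range. Rbks, the ribokinase gene, averaged 13.0 ± 1.36 CPM in knockout-labelled and 13.1 ± 0.0494 CPM in wild type livers, a log2 fold change of -0.01. Its deposited model overlaps that of Babam2 by 25585 bases. Selenoi, the selenoprotein that makes phosphatidylethanolamine, averaged 33.6 ± 4.21 CPM in knockout-labelled and 35.3 ± 9.05 CPM in wild type livers, and 1 wild type library at 45.7 CPM set the larger spread. Of the nucleotide synthesis genes, Cad, which carries the opening steps of pyrimidine synthesis, averaged 8.17 ± 1.70 CPM in knockout-labelled and 6.94 ± 1.96 CPM in wild type livers, with a log2 fold change of 0.24 (SE 0.23). The deposited model of Cad overlaps that of Atraid by 5994 bases on the same strand. The part of Atraid reads in the Cad count was not tested. Tyms, thymidylate synthase, averaged 14.4 ± 1.93 CPM in knockout-labelled and 14.2 ± 2.43 CPM in wild type livers, and its log2 fold change was 0.02 (SE 0.16).

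Of the 40 genes kept, the 2 taken here as mitochondrial were Mpv17 and Mrpl33. Mpv17, an inner membrane protein needed for mitochondrial DNA maintenance, averaged 33.1 ± 3.28 CPM in knockout-labelled and 32.7 ± 1.31 CPM in wild type livers, and its interval of -0.21 to 0.25 covers folds of 0.862 to 1.193. Mrpl33 averaged 16.4 ± 2.05 CPM in knockout-labelled and 15.9 ± 1.93 CPM in wild type livers, a log2 fold change of 0.05 with an interval of -0.27 to 0.36, and its sign turned on the TPM scale. Both share bases with a neighbour in the deposited models, Mpv17 with Gtf3c2 over 13589 bases and Mrpl33 with Rbks over 5435 bases.

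Genes of transcription, translation and chromatin had log2 fold changes between -0.11 and 0.21. Gtf3c2, a subunit of the RNA polymerase III factor TFIIIC, was among the most even genes, with 43.3, 42.1 and 42.7 CPM in knockout-labelled livers and 40.3, 41.8 and 43.9 CPM in wild type livers. Its log2 fold change was 0.02 with an interval of -0.17 to 0.22. Eif2b4, a subunit of the exchange factor for the initiation factor eIF2, averaged 24.6 ± 4.6 CPM in knockout-labelled and 23.5 ± 3.78 CPM in wild type livers (log2 fold change 0.07). Cenpa, the histone H3 variant of centromeres, averaged 3.77 ± 0.393 CPM in knockout-labelled and 3.26 ± 0.765 CPM in wild type livers (0.21, SE 0.22). Supt7l, a subunit of the SAGA-type acetyltransferase complex, and Gpn1, a GTPase that helps RNA polymerase II enter the nucleus, had log2 fold changes of -0.09 and -0.11. The zinc-finger genes Zfp512 and Zfp513 had log2 fold changes of 0.05 and 0.04.

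The remaining genes above 1 TPM serve trafficking, signalling and cilia. Nrbp1, a pseudokinase, averaged 48.1 ± 1.87 CPM in knockout-labelled and 47.8 ± 1.35 CPM in wild type livers, and its log2 fold change of 0.01 had the interval -0.18 to 0.20. Ppm1g, a nuclear protein phosphatase, averaged 39.4 ± 2.19 CPM in knockout-labelled and 36.3 ± 5.81 CPM in wild type livers (log2 fold change 0.12). Snx17, which returns LDL receptor family members to the cell surface, and Slc35f6 had log2 fold changes of 0.06 and 0.07. Ift172, a subunit of the intraflagellar transport complex B, had one of 0.06, Babam2, a scaffold of the BRISC deubiquitinase, one of 0.04, Slc4a1ap one of -0.08 and Atraid one of 0.07. Each of these intervals included 0.

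The genes below 1 TPM are known mainly from other tissues or cell types, and their counts allow little to be said. Il6, the interleukin-6 gene, and Dpysl5, a gene of neuronal growth cones, each had 0 counts in all 3 knockout-labelled libraries and 1, 0 and 1 counts in wild type. Gm9970 had 2 counts in knockout-labelled replicate 3 and 0 elsewhere, and Adgrf3 had 1 count in each of 2 libraries. Krtcap3 had 1, 2 and 3 counts in knockout-labelled and 1, 2 and 7 counts in wild type libraries, and its highest count fell, like that of Cgref1, in wild type replicate 3. Among those with enough counts to be tested, Drc1, a part of the dynein regulatory complex of motile cilia, had 5, 9 and 13 counts in knockout-labelled and 20, 10 and 4 counts in wild type libraries. The potassium channel gene Kcnk3 had 12, 3 and 4 counts in knockout-labelled and 2, 10 and 15 counts in wild type libraries, and its interval ran from -2.04 to 1.20. Slc30a3, a zinc transporter, had 11, 8 and 12 counts in knockout-labelled and 5, 9 and 11 counts in wild type libraries, so that its log2 fold change of 0.38 had SE 0.43.

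The interval also holds 4 pairs of genes that start within 1 kb of each other on opposite strands. Eif2b4 and Snx17, whose RefSeq starts are 165 bases apart, had log2 fold changes of 0.07 and 0.06. Supt7l and Slc4a1ap, 233 bases apart, had -0.09 and -0.08. For Slc5a6 and Atraid, 78 bases apart, the values were 0.14 and 0.07 at levels of 6.99 and 120.2 TPM. Rbks and Babam2, 440 bases apart, had -0.01 and 0.04. Every one of these 8 values had a confidence interval that included 0.

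The genes that work with a neighbour of Cgref1 were described as lists, by counts and medians. A list of EF-hand proteins and one of CREB-H and its targets were added, the latter without a gene of the interval. No list test was run, since all lists were written with earlier results of these data known. In the COPII list 15 of 18 genes had positive log2 fold changes with a median of 0.10, 3 had higher values at an unadjusted p under 0.05 by edgeR, against 2.95% of all genes, and 0 passed over all genes. The count of 3 was 1 with library totals, with upper-quartile factors or on log2(TPM + 1), 0 on log2(FPKM + 1), and 1 to 2 with any 1 library left out. Besides Preb the 3 were Sec23b, an inner coat subunit, with 57.4 ± 2.15 CPM in knockout-labelled and 46.8 ± 4.10 CPM in wild type livers (log2 fold change 0.30, SE 0.10), and Sec13, an outer coat subunit, with a log2 fold change of 0.22. In the oligosaccharyltransferase list 10 of 12 genes were positive with a median of 0.14, 4 had higher and 1 had lower values at an unadjusted p under 0.05 by edgeR, against 2.95% and 2.2% of all genes, and 0 passed. Together these 5 became 1 with library totals or on log2(TPM + 1), 0 without knockout-labelled replicate 3, and 2 to 4 without any other 1 library. Ddost, a noncatalytic subunit, averaged 98.9 ± 9.68 CPM in knockout-labelled and 80.9 ± 1.92 CPM in wild type livers (log2 fold change 0.29, SE 0.10), and Krtcap2 had a log2 fold change of 0.27. The other 2 with higher values, named after these were seen, were Tmem258 (0.26) and Rpn2 (0.22). Ost4, at -0.07, was one of the 2 negative genes of this list, and the other was Tusc3 at -0.30. Over all genes tested 49.5% were positive. Relative to the median of all genes, the COPII median stood at 0.11 and ranged from 0.07 to 0.14 over 18 alternative settings, and the oligosaccharyltransferase median stood at 0.14 and ranged from 0.10 to 0.19. In absolute terms the COPII median was -0.03 on log2(TPM + 1), with 6 of 18 genes positive, and the oligosaccharyltransferase median was 0.01, with 6 of 12 positive. The Kupffer cell markers given above had the sign of these medians, and the median of the stellate cell markers had the opposite sign. The part of either cell type in these lists was not tested.

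In the other lists the medians lay between -0.03 and 0.09. All 5 eIF2B subunits were positive with a median of 0.09, but without knockout-labelled replicate 3 the median was -0.02 with 2 of 5 positive, and on log2(TPM + 1) 1 of 5 was positive. With 1 library left out their median ran from -0.02 to 0.19. In this list Eif2b5 had the smallest p (log2 fold change 0.23, adjusted p = 0.955 by edgeR), while Eif2b2 had 0.13. The 6 TFIIIC subunits had a median of 0.00, with 0.12 for Gtf3c3 and -0.10 for Gtf3c6. The 8 pyrimidine synthesis genes had a median of 0.05, with 0.33 for Dhodh, and the 8 tested genes of the BRISC and BRCA1-A list one of 0.02, with 0.12 for Shmt2 and -0.16 for Brcc3. For 15 genes of intraflagellar transport complex B the median was 0.01, with 0.32 for Ttc30b and 0.20 for Ift27. The list of EF-hand proteins of the secretory pathway, to which Cgref1 belongs by its protein type, had 13 tested genes. Of these 6 were positive and 7 negative with a median of 0.00. They include Lman1 (0.13), which is the partner of the EF-hand protein Mcfd2 and no EF-hand protein itself. Within this list Nucb2, which encodes nucleobindin-2, averaged 3.48 ± 1.34 CPM in knockout-labelled and 1.56 ± 0.379 CPM in wild type livers (log2 fold change 1.16, SE 0.34, adjusted p = 0.85 by edgeR), and Sparcl1 had -0.50. The list of the liver transcription factor CREB-H (Creb3l3) and its targets, which holds no gene of the interval, had 4 positive and 4 negative values. Its median of -0.03 hides differences in both directions, since the median size regardless of sign was 0.36, against 0.11 over all genes. With 1 library left out the median ran from -0.10 to 0.13. Hamp, the hepcidin gene, averaged 386.7 ± 77.0 CPM in knockout-labelled and 625.1 ± 99.6 CPM in wild type livers (log2 fold change -0.69, SE 0.16, adjusted p = 0.739 by edgeR). Apoa4, an apolipoprotein gene, averaged 80.4 ± 17.7 CPM in knockout-labelled and 48.7 ± 8.59 CPM in wild type livers (0.72, SE 0.18, adjusted p = 0.754 by edgeR). The other 3 genes at an unadjusted p under 0.05, named after their values were seen, were Apoa1 (0.41), Creb3l3 (0.32) and Apoc2 (-0.46). No gene of these 7 lists passed over all genes tested by edgeR (0 genes). At an unadjusted p under 0.05, with a background of 5.15% of all genes, 5 of the 8 CREB-H genes, 2 of the EF-hand genes, 1 eIF2B gene and 0 genes of the other 4 lists were found. DESeq2 called 1 gene of these lists, Hamp (log2 fold change -0.70, adjusted p = 0.0199).

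**Figure D4:**
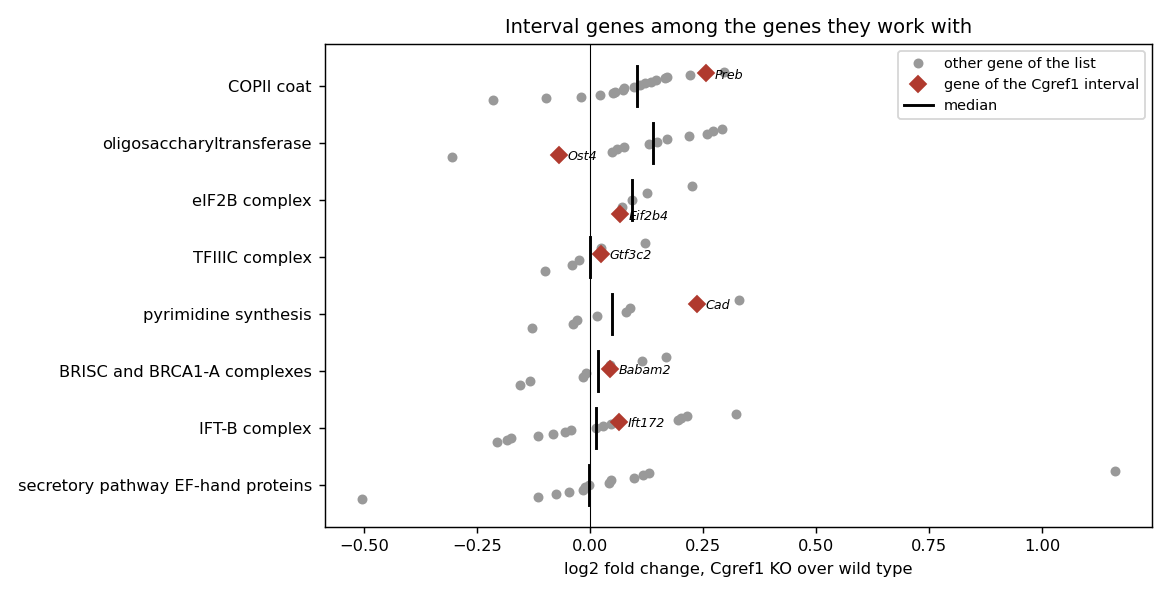
Log2 fold change of Cgref1 KO over wild type for each tested gene (grey circles) of 8 lists, with genes of the Cgref1 interval as red diamonds and the list median as a bar. Preb stands among mostly positive COPII genes, Ost4 stands below most of the oligosaccharyltransferase genes, and the TFIIIC, BRISC and intraflagellar transport lists centre near 0.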

How the data were processed

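RNA sequencing of 3 Cgref1 KO and 3 wild type mouse livers was used, grouped by sample title. The submitters' processing notes name HISAT, Bowtie2, RSEM and DESeq2 without versions and name no genome build. Coordinates fit GRCm38. The authors deposited one table that holds, by its headers, raw expected counts beside FPKM and TPM for every library. It also holds the authors' log2 fold change, p-value and q-value. A further 15 value columns were not used.

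The rounded expected counts were filtered with filterByExpr (minimum count 10), which kept 12033 of 15953 genes. TMM factors ranged from 0.955 to 1.05. All genes were fitted in edgeR 4.0.16 under R 4.3.3 with robust quasi-likelihood, without a block, and adjusted by Benjamini-Hochberg at a threshold of 0.05. Biological variation between libraries (edgeR's coefficient) was 15.8%. CPM of single genes use TMM-scaled totals, and marker sums use plain totals. Cgref1 missed the filter and was fitted with the gene kept. Alternatives were other scalings and filters, DESeq2 1.42.0, limma 3.58.1 (voom, or trend on log2 of TPM or FPKM after adding 1 or 0.1), a replicate block, other windows, and libraries left out. The fit was tested on simulated data with 3 against 3 libraries. Many genes were changed at once in the simulated data, which makes the adjusted threshold easier to pass. There the fit recovered 26% of 1.5-fold, 70% of 2-fold, 94% of 3-fold and 96% of 4-fold changes, with 11 false calls. Recovery is lower where few genes change, so these shares are not the sensitivity of the fit to the real libraries. Changes under 1.5-fold were not simulated.

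The interval, the marker lists and the partner lists were chosen with earlier results of these data known. The rule for named genes took Cgref1, genes within 100 kb of it, genes at an unadjusted p under 0.05, the 5 highest by TPM, genes whose groups did not overlap, genes below the filter by their counts, and up to 2 genes of smallest p per list. Other genes of the interval were named to account for all 40. Distances and overlaps use the deposited coordinates. Starts, strands and sequences are from RefSeq (GRCm38.p6), which matched 39 of the 40 genes, 37 of them with a promoter entry.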

Additional observations from a re-analysis of the deposited data

How the results depend on the processing

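Under all 20 alternatives 0 genes of the interval were called. The number at an unadjusted p under 0.05 was 2 with no filter and with the replicate block, 1 with DESeq2 size factors, upper-quartile factors, a mean of at least 5 CPM, DESeq2 or limma-voom, and 0 with library totals, on each TPM or FPKM scale and without wild type replicates 1 and 3. It was 0 to 2 with 1 library left out. Over all genes the count of 1 became 28 with DESeq2, 34 with the replicate block, 0 at a mean of at least 5 CPM and 0 without wild type replicates 1 and 3, and it was 1 to 5 with 1 library left out (5 without knockout-labelled replicate 1). The fit without wild type replicates 1 and 3 has 1 wild type library, assumed to vary like the others, so its counts of 0 say nothing about stability. With all libraries edgeR found 620 genes at an unadjusted p under 0.05, DESeq2 521 and limma-voom 630. The median log2 fold change of the interval was -0.0448 with library totals, -0.0435 on log2(FPKM + 1), -0.0867 on log2(TPM + 1), -0.0968 on log2(TPM + 0.1), 0.0189 with no filter, 0.0226 without wild type replicates 1 and 3, 0.0646 for a window of 500 kb, 0.0198 for 2 Mb, and -0.0046 to 0.0473 with 1 library left out. The median of all genes was -0.084, -0.059, -0.1055 and -0.1298 on the first 4 of these scales, and the interval minus all genes ranged from -0.0073 to 0.0513 over 18 settings.

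The Cgref1 value of -0.11 changed sign with limma-voom (0.0242) and without wild type replicates 1 and 3 (0.5493), and ran from -0.3579 to 0.5336 with 1 library left out. Of 180 values, from the 10 neighbours that the rule names (those tested within 100 kb, and Atraid, Gckr and Mrpl33) under 18 settings, 17 changed sign; the other neighbours were not followed singly. Atraid had -0.0175 with library totals, -0.0173 on FPKM, -0.0696 on log2(TPM + 1) and -0.0701 on log2(TPM + 0.1), and Mrpl33 had -0.0357, -0.0435, -0.0956 and -0.0968 on the same scales. Without wild type replicates 1 and 3, Emilin1 had -0.0763 and Slc5a6 -0.1552. With 1 library left out, Agbl5 ranged from -0.3718 to 0.0003, Emilin1 from -0.0489 to 0.2374, Mapre3 from -0.1049 to 0.0542, Mrpl33 from -0.0526 to 0.126 and Slc5a6 from -0.033 to 0.3032. The cause was not tested. With 1 library left out, the list medians ran from -0.0369 to 0.0287 for TFIIIC, -0.0174 to 0.1261 for pyrimidine synthesis, -0.0034 to 0.0462 for BRISC and BRCA1-A, -0.0441 to 0.0621 for intraflagellar transport and -0.0473 to 0.088 for EF-hand genes. Tmem214 (0.1248 to 0.3268) and Preb (0.0854 to 0.3205) kept their sign in 18 of 18 settings, as did Gckr and Ost4. The groups of Tmem214 and Preb did not overlap in CPM, so leaving libraries out could hardly turn their sign. Their kept sign in those fits is therefore no measure of stability. The replicate numbers were not taken as pairs: deviations of libraries with the same number correlated at 0.283, 0.06 and 0.348, although each library correlated best with its own number, a hint from the data only. Depth limits what can be said of the 10 genes below 1 TPM.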
